A study of Mus musculus with 6 samples.

Results

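Molecular chaperones bind unfolded proteins and help them fold, and each compartment of the cell has its own set. In the cytosol, the HSP70 and HSP90 families work with cochaperones and with the ring-shaped chaperonin CCT, which folds actin and tubulin. In the endoplasmic reticulum (ER), where secreted and membrane proteins are made, folding load is sensed by IRE1, PERK and ATF6, and the unfolded protein response that they start raises ER chaperones and, through PERK and ATF4, the genes of the integrated stress response. Heat shock factor 1 does the same for cytosolic chaperones. Hematopoietic stem cells are known for a low rate of protein synthesis and for sensitivity to misfolded protein.

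The 52 genes described here were chosen by name, as chaperones and unfolded protein response genes, and all 52 were found, each as 1 row, among the 23413 genes of the deposited count table. They fall into 14 cytosolic heat shock proteins and cochaperones, 8 CCT subunits, 4 mitochondrial chaperones and protease, 15 ER chaperones and folding enzymes, 7 stress sensors and transcription factors and 4 targets of the integrated stress response. Expression was measured by RNA-seq in F4/80 positive and F4/80 negative hematopoietic stem cells, all from bone marrow of mice labelled wild-type (WT), with 3 libraries per group made of 2000 to 5000 cells each. F4/80 is a surface protein of macrophages, encoded by Adgre1. The labels give no age, strain or treatment, and the title of the series names trogocytosis, in which one cell takes membrane from another, in connection with the receptor c-Kit. Levels are given as CPM, counts scaled to a common library total with TMM factors, and a gene is called when edgeR's quasi-likelihood test gives a Benjamini-Hochberg adjusted p below 0.05 over the 14451 genes that passed a filter on low counts. Total counts per library ran from 18637526 to 21042379, so that 3 counts, the limit that a count of 0 allows, equal between 0.146 and 0.167 CPM. This covers counting error only.

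The libraries differed in other ways that bear on the genes below. Adgre1 itself measured 35.9, 38.9 and 21.3 CPM in positive libraries and 2.88, 1.41 and 2.61 CPM in negative ones. All 12 listed stem cell markers were detected in both groups, with 8 of 12 called lower in the positive libraries. Of 16 macrophage markers 15 were tested and all 15 were called higher, with a summed level of 466 to 1006 CPM in positive libraries and 120 to 133 CPM in negative ones. All 22 genes of the G2 and M list were called higher, with a median log2 fold change of 1.13. Both libraries numbered 3 stood apart in immediate early genes, which respond within minutes to cell handling: the 15 listed genes summed to 321, 291 and 1042 CPM in positive and 378, 358 and 2367 CPM in negative replicates 1 to 3. Plasma cell transcripts stood out in negative replicates 1 and 2: positive libraries held 0.111 to 0.538 CPM of Jchain, and negative replicates 1 to 3 held 66.0, 75.4 and 0.820 CPM. The 16 B and plasma cell markers summed to 223 to 296 CPM in positive libraries and 314 to 948 CPM in negative ones. Megakaryocyte markers summed to 1291 to 1803 CPM in positive libraries and 518 to 615 CPM in negative ones, with 4 of 6 tested called higher. Mast cell and basophil markers summed to 71.2 to 92.2 CPM in positive libraries and 17.2 to 31.7 CPM in negative ones, with 3 of 3 tested called higher. Neutrophil and granulocyte progenitor markers summed to 450 to 574 CPM in positive libraries and 284 to 1076 CPM in negative ones, the highest in negative replicate 2, with 1 of 9 called lower. Erythroid markers, with 1 of 9 called lower, summed to 285 to 542 CPM in positive libraries and 435 to 856 CPM in negative ones. Yet 5 of the 9 had a positive log2 fold change, with a median of 0.39, so the sums do not stand for most of the list. T and NK cell markers summed to 293 to 302 CPM in positive libraries and 100 to 158 CPM in negative ones. Of the 6 listed, 3 had 0 counts in all positive libraries and only 2 were tested. Of the tested ones 1 was called higher (log2 fold change 1.20) and 1 lower (-2.20). The part of these differences in the chaperone results was not tested. In bulk RNA, fewer cells of a type and less RNA per cell cannot be told apart.

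Several chaperones were slightly more abundant in F4/80 positive stem cells. Of the 49 members tested 13 were called higher and 2 lower, against backgrounds of 9.65% higher and 10.9% lower among all tested genes. All 13 higher members were chaperones or folding enzymes, classes that hold 39 of the 49 tested members. Of the 13, 7 were of the ER, 5 were subunits of CCT and 1 was a cytosolic cochaperone. Of the 4 mitochondrial members 0 were called, a count near the background share. Both lower members were regulatory genes, the sensor gene Ern1 and the stress target Trib3. The chaperone genes Dnajb4 and Dnajb9 were also lower without overlap but were not called. The median log2 fold change was 0.28 for the ER class, 0.28 for CCT, 0.20 for the mitochondrial class and 0.12 for the 12 tested cytosolic genes, against -0.13 for the sensors and factors, -0.59 for the 3 tested stress targets and -0.03 over all tested genes. The differences between these classes were not tested. The median of the 3 stress targets is the value of Ppp1r15a alone (SE 0.47), which was 0.25 without negative replicate 3. A wider list of the ATF4 programme, described below, had a median of 0.21 over 31 tested genes.

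**Figure D1:**
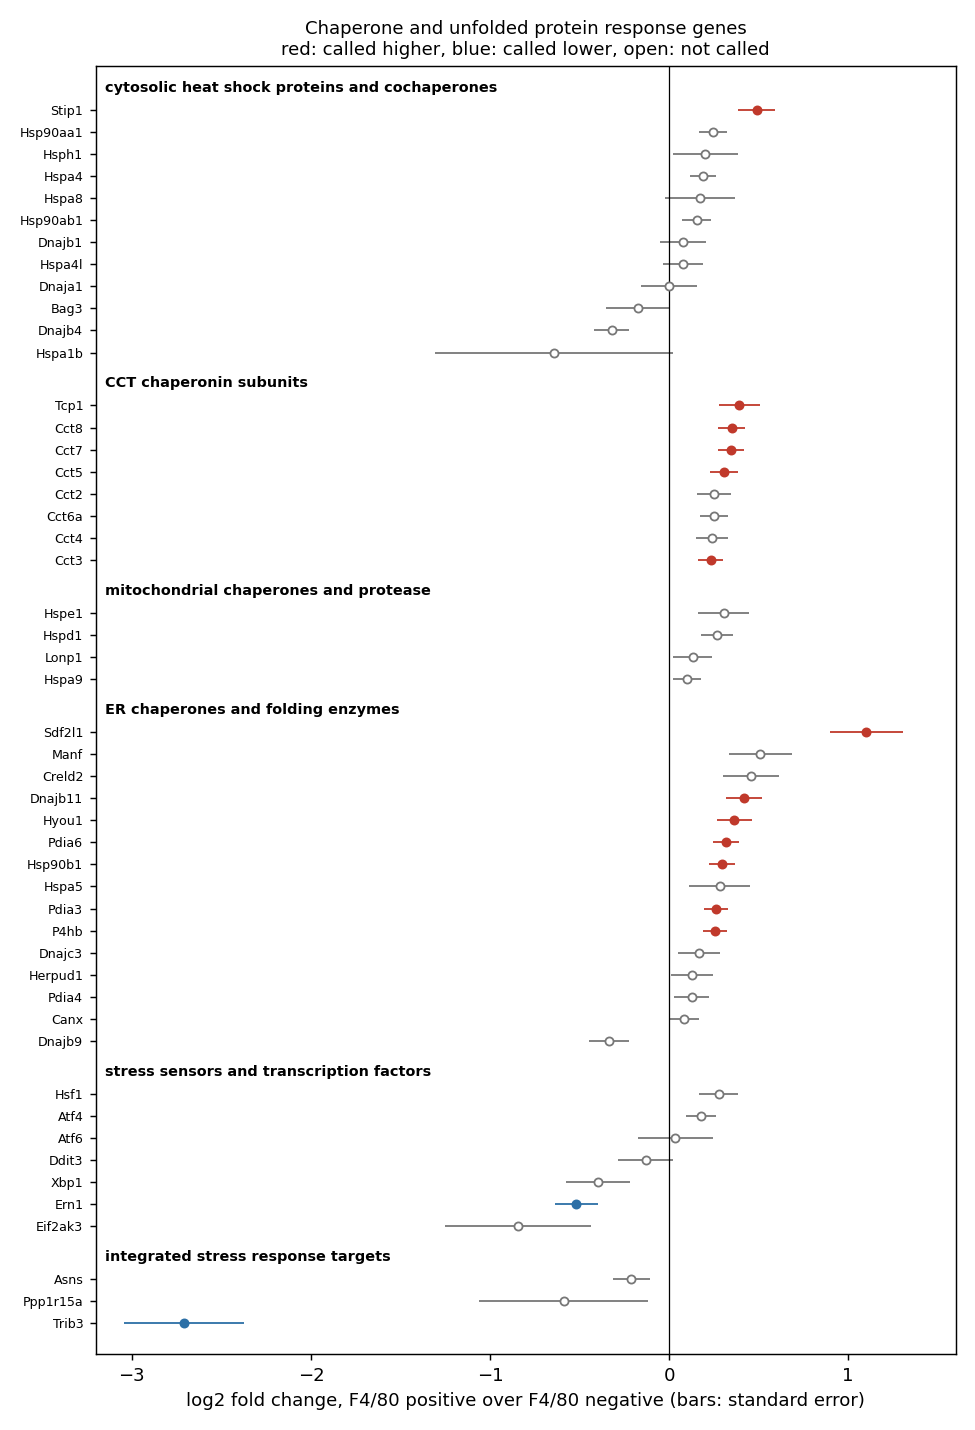
Log2 fold change of F4/80 positive over F4/80 negative libraries (horizontal axis) for the 49 tested members, grouped by class, with the standard error as a bar. Filled red points are the 13 members called higher, filled blue points the 2 called lower and open grey points those not called. All 8 CCT subunits and 14 of 15 ER genes lie to the right of 0, and all 3 stress targets to the left.

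The higher members differed by small factors, from 1.18-fold to 1.41-fold, apart from Sdf2l1 with 2.15-fold. All libraries of one group lay above all of the other for 22 members higher and 4 lower in the positive group, against 20.1% and 20.5% of all tested genes. The same replicate numbers occur in both groups, and same-numbered libraries deviated from their group means together. Within these pairs 34 members were higher in the positive library in all 3 pairs and 9 were lower in all 3, against 30.0% and 32.7% of all tested genes. With the replicate number as a block, edgeR called 25 members higher and 5 lower, against 14.6% and 16.8% of all tested genes. The count of higher members was 6 with no composition factor, 4 when either positive replicate 2 or 3 or either negative replicate 1 or 3 was dropped, 12 without positive replicate 1 and 19 without negative replicate 2. With both libraries numbered 3 left out, edgeR called 0 members higher (12 at an unadjusted p below 0.05) and 1 lower, while 38 of 49 kept a positive log2 fold change, as with all libraries, and the median was 0.19 in both cases.

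**Figure D2:**
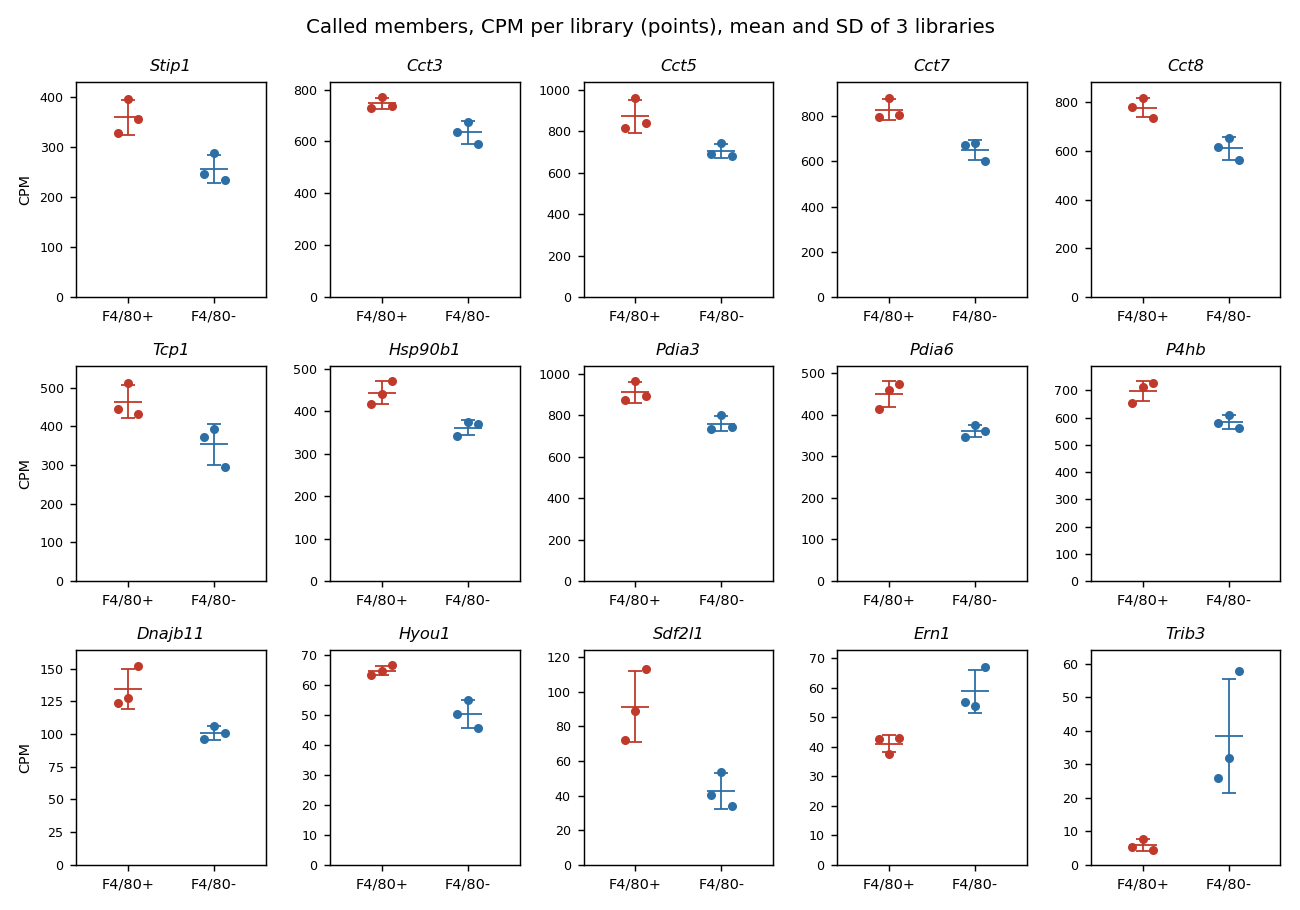
CPM (vertical axes, from 0) of the 15 called members in each library, with F4/80 positive libraries in red on the left of each panel and F4/80 negative libraries in blue on the right. Points are libraries, and the horizontal marks and bars give the mean and SD of 3 libraries. In every panel the libraries of the 2 groups do not overlap, and only for Ern1 and Trib3 are the positive libraries the lower ones.

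Among the cytosolic genes 1 of 12 tested was called higher and 0 lower, against 9.65% and 10.9% of all tested genes. The count of higher genes is near that share. Stip1, also called HOP, the cochaperone that hands client proteins from HSP70 to HSP90 (ENSMUSG00000024966, GRCm39 chromosome 19, 6998070 to 7017335, minus strand, protein-coding), measured 328, 397 and 357 CPM in positive libraries and 247, 289 and 234 CPM in negative ones. Every positive library lay above every negative one. The log2 fold change was 0.49 (SE 0.10, adjusted p = 0.0129 by edgeR). The call held under each alternative except with both libraries numbered 3 left out (log2 fold change 0.44, adjusted p = 0.118).

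For several abundant HSP70 and HSP90 genes the call depended on the replicate block. Hspa8, the constitutive HSP70, measured 1708, 2850 and 2315 CPM in positive libraries and 1599, 2490 and 2002 CPM in negative ones. The groups overlapped, yet in each same-numbered pair the positive library was the higher one. Its log2 fold change of 0.17 had an SE of 0.20 without the block (edgeR adjusted p = 0.566) and 0.04 with it (edgeR adjusted p = 0.0204). Hsp90ab1, the constitutive HSP90, measured 2141, 2423 and 2025 CPM in positive libraries and 1980, 2090 and 1844 CPM in negative ones, again higher in each pair (edgeR adjusted p = 0.205 without and 0.0254 with the block). Hsp90aa1, the inducible HSP90, was not overlapping, with 959, 1094 and 980 CPM in positive libraries and 871, 906 and 780 CPM in negative ones. It passed with the block (edgeR adjusted p = 0.00979 against 0.0605 without) and with DESeq2 (adjusted p = 0.0402). Hspa4, an HSP70 relative that acts as nucleotide exchange factor, averaged 273 ± 15.4 CPM in positive libraries and 239 ± 9.30 CPM in negative ones (SD, n = 3 each), with edgeR adjusted p = 0.0946 without and 0.0401 with the block.

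**Figure D3:**
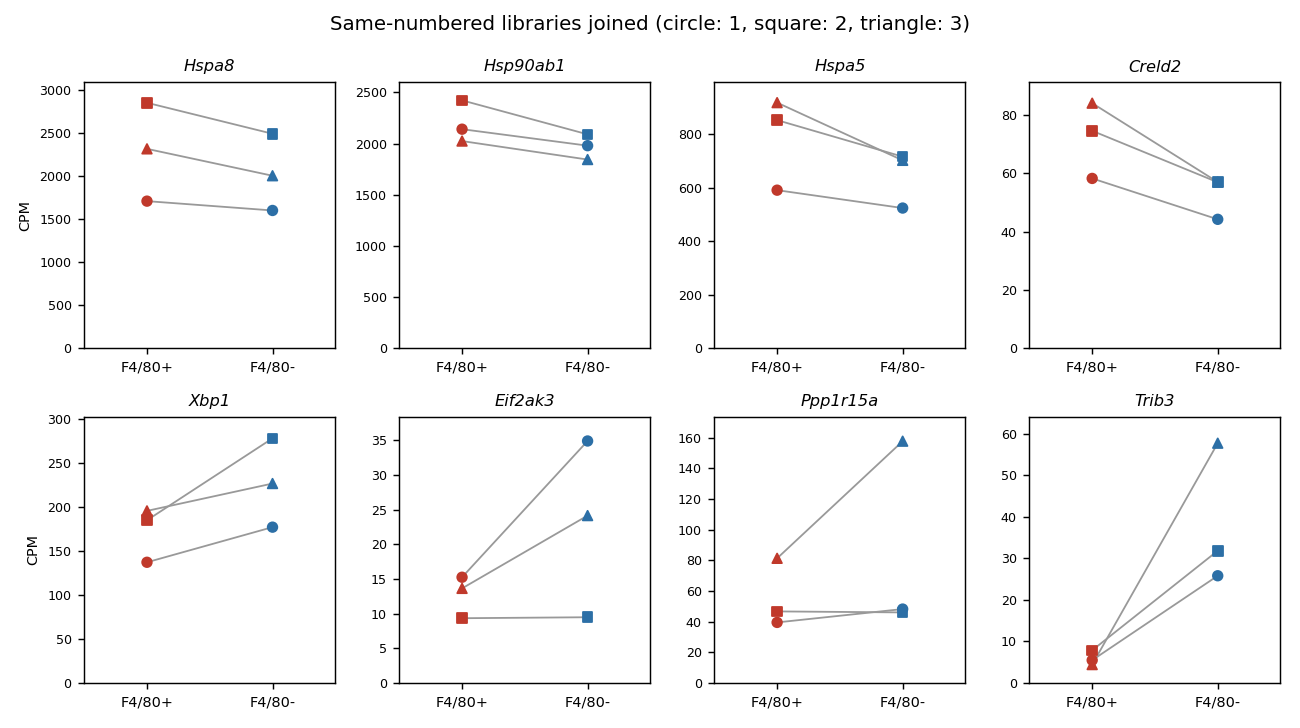
CPM (vertical axes, from 0) of 8 members, with F4/80 positive libraries on the left and F4/80 negative libraries on the right of each panel, and lines joining libraries with the same replicate number (circle 1, square 2, triangle 3). The 3 lines of Hspa8, Hsp90ab1, Hspa5 and Creld2 slope down from positive to negative libraries, and those of Xbp1 and Trib3 slope up.

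Of the genes that heat shock induces, Hspa1a, Hspa1b and Hspb1 had few counts. Hspa1a and Hspa1b encode near-identical inducible HSP70 proteins, so their split of reads is uncertain. As the read counter is not given, reads that match both genes may also have been left out, and their low counts may understate both. Hspa1a had 2, 11 and 15 counts in positive libraries and 1, 4 and 9 counts in negative ones and was not tested. Hspa1b measured 0.428, 2.39 and 1.56 CPM in positive libraries and 1.02, 4.08 and 1.74 CPM in negative ones, with an edgeR adjusted p of 0.529. The small heat shock protein gene Hspb1 had 0, 0 and 13 counts in positive libraries and 1, 1 and 6 counts in negative ones and was not tested. Within each group, Hspa1a and Hspb1 were highest in the library numbered 3, which also held the most immediate early transcripts (Fos at 191 CPM in the positive and 382 CPM in the negative one, against 0.749 to 1.46 CPM in the other 4). Hspa1b was highest in the library numbered 2 of each group. Dnajb1, an HSP40 that serves as a common readout of heat shock factor activity, measured 151, 191 and 188 CPM in positive libraries and 141, 175 and 186 CPM in negative ones, which overlapped (edgeR adjusted p = 0.698).

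The other cytosolic members did not pass the test. Hsph1, an HSP110 exchange factor, averaged 99.5 ± 16.1 CPM in positive libraries and 86.5 ± 21.5 CPM in negative ones, and Hspa4l 81.6 ± 7.76 and 77.4 ± 7.60 CPM in the same order (SD, n = 3 each). Dnaja1, an HSP40 whose gene overlaps Smu1 on the opposite strand, averaged 342 CPM in both groups, with SDs of 66.2 CPM in positive libraries and 59.7 CPM in negative ones and a log2 fold change of 0.0020 (SE 0.16). Bag3, which couples HSP70 to selective autophagy, averaged 22.8 ± 4.49 CPM in positive libraries and 25.7 ± 3.96 CPM in negative ones. Dnajb4, another HSP40, went the other way without overlap, with 42.9, 43.4 and 43.4 CPM in positive libraries and 51.8, 50.9 and 59.1 CPM in negative ones. Its edgeR adjusted p was 0.0504, and 0.0336 with the block, 0.0265 with no composition factor and 0.0386 with the strict filter.

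All subunit genes of CCT differed in the same direction. CCT is a double ring in which each ring holds each of its 8 different subunits, so every subunit gene is needed for the complex. All 8 subunit genes were higher in every positive library than in every negative one, against 20.1% of all tested genes. The test called 5 of 8 higher, against 9.65% of all tested genes. Cct7 measured 797, 881 and 807 CPM in positive libraries and 672, 683 and 601 CPM in negative ones, a log2 fold change of 0.35 (SE 0.07, edgeR adjusted p = 0.0145). Cct8 measured 778, 817 and 736 CPM in positive libraries and 616, 653 and 561 CPM in negative ones, a log2 fold change of 0.35 (SE 0.08, edgeR adjusted p = 0.0151). Cct7 kept its call in each alternative except with both libraries numbered 3 left out (adjusted p = 0.0961), and Cct8 lost it there (0.0730) and without positive replicate 2 (0.0509).

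Tcp1, which encodes the alpha subunit, had the largest point estimate of the complex, with 446, 514 and 433 CPM in positive libraries and 374, 393 and 294 CPM in negative ones (log2 fold change 0.39, SE 0.12, edgeR adjusted p = 0.0434). Cct5 rose by 1.24-fold (edgeR adjusted p = 0.0289) and Cct3 by 1.18-fold (edgeR adjusted p = 0.0448). Cct2, Cct4 and Cct6a had log2 fold changes of 0.25, 0.24 and 0.25 and edgeR adjusted p of 0.0923, 0.0852 and 0.0534, and they passed with the replicate block, at 0.0120, 0.0174 and 0.00617. The 8 log2 fold changes lay between 0.23 and 0.39, with standard errors of 0.07 to 0.12. The calls of Cct5, Tcp1 and Cct3 were lost in several alternatives, with adjusted p up to 0.155, 0.139 and 0.213. The summed level of the 8 genes was 5010, 5566 and 4996 CPM in positive libraries and 4254, 4524 and 3883 CPM in negative ones. Tcp1, Cct6a, Cct7 and Cct8 overlap other genes on the opposite strand in the table, and the use of strand in counting is not given in the sources used here. For Tcp1 the partner is Mrpl18, with 2273 counts per library on average against 7894 for Tcp1.

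**Figure D4:**
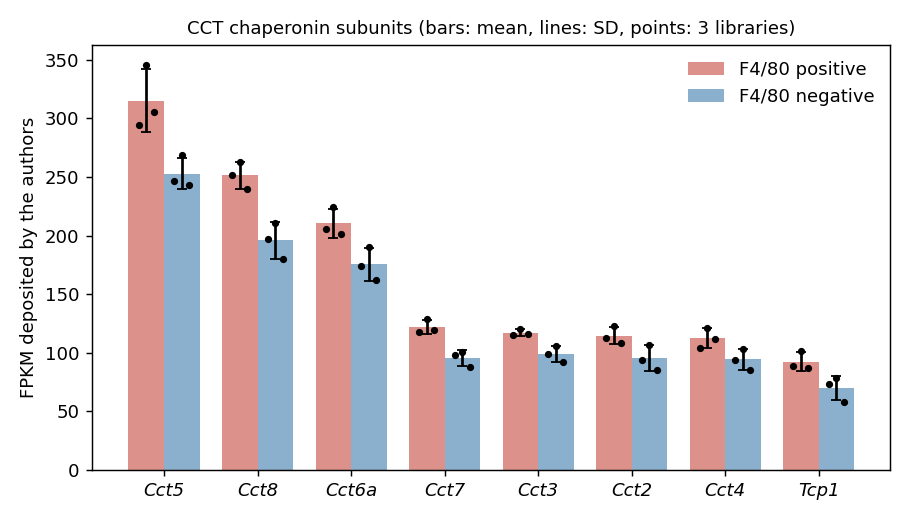
FPKM deposited by the authors (vertical axis) for the 8 CCT subunit genes, with F4/80 positive libraries in red on the left of each pair and F4/80 negative libraries in blue on the right. Bars are means, lines SDs and points the 3 libraries. Cct5, Cct8 and Cct6a stand above the other 5 subunits in both groups, and each positive mean is above its negative one.

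Per length, the subunit genes were not at one level. In the FPKM values deposited by the authors, Cct5 was highest, with 315 ± 27.1 in positive and 253 ± 13.6 in negative libraries (SD, n = 3 each), followed by Cct8 with 251 ± 11.6 and 196 ± 15.6 and Cct6a with 211 ± 12.4 and 176 ± 14.0 in the same order of groups. Cct7, Cct3, Cct2 and Cct4 followed at positive means of 112 to 122 FPKM and overlapped one another, and Tcp1 was lowest with 92.2 ± 8.01 FPKM in positive and 69.7 ± 10.5 FPKM in negative libraries. Cct5 lay above Cct8, Cct6a above Cct7 and Cct4 above Tcp1 without overlap in both groups, while Cct8 and Cct6a overlapped in the negative libraries. FPKM divides by the gene length of the table, so this order depends on those lengths. Cct5, Cct8 and Cct6a have 2766, 3088 and 3499 bases there and Cct2 has 2557. Cct4, Tcp1, Cct3 and Cct7 are longer, with 4201, 5030, 6370 and 6778 bases. In CPM, which does not divide by length, the order differed. Positive libraries averaged 464 CPM for Tcp1 against 293 for Cct2, and 828 CPM for Cct7 against 777 for Cct8.

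In the mitochondrion, 4 of 4 members had a positive log2 fold change and 0 passed the edgeR test (1 at an unadjusted p below 0.05, and 1 with DESeq2). Over all tested genes 47.1% had a positive log2 fold change and 9.65% were called higher. Hspd1 and Hspe1 encode HSP60 and its lid HSP10, and they are transcribed in opposite directions from a shared promoter. Hspd1 measured 563, 619 and 530 CPM in positive libraries and 481, 516 and 425 CPM in negative ones without overlap (log2 fold change 0.27, SE 0.09, edgeR adjusted p = 0.0670). Hspd1 was called once the block was added (edgeR adjusted p = 0.00578) and by DESeq2 (adjusted p = 0.0395). Hspe1 measured 88.1, 109 and 97.4 CPM in positive libraries and 78.5, 94.7 and 65.0 CPM in negative ones, which overlapped (edgeR adjusted p = 0.165 without and 0.0403 with the block). Both also passed without negative replicate 2. The 2 genes overlap on opposite strands, with 10087 counts per library on average for Hspd1 and 1714 for Hspe1. Hspa9, the mitochondrial HSP70, averaged 654 ± 46.7 CPM in positive libraries and 610 ± 41.9 CPM in negative ones, and Lonp1, a protease that degrades damaged matrix proteins, 172 ± 12.8 and 157 ± 19.8 CPM in the same order (SD, n = 3 each). Neither passed, with or without the block.

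The shared promoter of the pair holds heat shock elements, the binding sites of heat shock factors. The element was searched on both strands as 3 alternating units, GAA, any 2 bases, TTC, any 2 bases and GAA, in the 300 bases from 250 before to 50 after each gene start (RefSeq, GRCm38.p6), where 43 of the 52 members have a window. The members without a window, Hspa8, Hsp90aa1, Hsp90ab1, Hspa9, Hsf1, Atf6, Hyou1, Manf and Cct4, were not searched. The element was found for 3 of the 43, Hspd1, Hspe1 and Hsph1, against 0.662% of the 27025 genes with a window. Heat shock genes were among those chosen by name, so this share is not independent of the choice. In the Hspd1 and Hspe1 windows the match is the same stretch, read from the Hspe1 side on the plus strand at chr1:55088034-55088096, with the element in capitals.
Hspe1 and Hspd1 shared stretch: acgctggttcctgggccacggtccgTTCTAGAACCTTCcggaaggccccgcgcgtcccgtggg
A further match overlaps it on the other strand. The match is a description of the letters and does not show that a factor binds.

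The ER class had the most called members. Of its 15 genes 7 were called higher and 0 lower, against 9.65% and 10.9% of all tested genes. A positive log2 fold change was found for 14 of 15, against 47.1% of all tested genes. Sdf2l1, an ER protein that works with the HSP70 BiP and its HSP40 partners, rose most (ENSMUSG00000022769, GRCm39 chromosome 16, 16948002 to 16950247, minus strand, protein-coding). It measured 72.2, 88.9 and 113 CPM in positive libraries and 40.2, 53.9 and 33.7 CPM in negative ones. Every positive library lay above every negative one, and among same-numbered libraries the widest gap was between those numbered 3. Its log2 fold change was 1.10 (SE 0.20, edgeR adjusted p = 0.00773), and 0.78 (adjusted p = 0.0729) with both libraries numbered 3 left out, the only alternative in which the call was lost.

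Of the genes whose products work with BiP, Dnajb11 and Hyou1 were called higher, and Dnajc3 and Dnajb9 were not called. Dnajb11, an ER HSP40, measured 124, 128 and 152 CPM in positive libraries and 95.9, 106 and 101 CPM in negative ones (log2 fold change 0.42, SE 0.10, edgeR adjusted p = 0.0227). Hyou1, the ER exchange factor GRP170, measured 63.4, 64.5 and 66.6 CPM in positive libraries and 50.4, 54.9 and 45.8 CPM in negative ones (log2 fold change 0.36, SE 0.10, edgeR adjusted p = 0.0321). Neither gene overlapped between the groups. Hspa5, which encodes BiP itself, the central ER chaperone and the classical readout of the unfolded protein response, did not pass the test. It measured 590, 852 and 918 CPM in positive libraries and 524, 716 and 702 CPM in negative ones, low in both libraries numbered 1. With the groups overlapping its edgeR adjusted p was 0.273, and within pairs its log2 fold change of 0.27 (SE 0.06) passed with the block (edgeR adjusted p = 0.00847).

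Hsp90b1, the ER HSP90 called GRP94, measured 417, 441 and 471 CPM in positive libraries and 340, 374 and 370 CPM in negative ones (log2 fold change 0.29, SE 0.07, edgeR adjusted p = 0.0250). Of the protein disulfide isomerases, which form and shuffle disulfide bonds, Pdia6 rose 1.25-fold, Pdia3 1.20-fold and P4hb 1.19-fold, with edgeR adjusted p of 0.0191, 0.0286 and 0.0313. Pdia3, the isomerase for glycoproteins, measured 873, 967 and 893 CPM in positive libraries and 734, 801 and 745 CPM in negative ones, and its 3 pairs differed by 0.25 to 0.27 on the log2 scale. Pdia4 did not pass, with 184 ± 7.71 CPM in positive libraries and 168 ± 19.8 CPM in negative ones (SD, n = 3 each). Hsp90b1, Pdia3, Pdia6, P4hb, Dnajb11 and Hyou1 each lost their call without positive replicate 3, negative replicate 1 or negative replicate 3 (adjusted p of 0.0583 to 0.112). All of these except Dnajb11 also lost it without positive replicate 2, and Hyou1 without positive replicate 1. Hsp90b1, Pdia3, P4hb and Hyou1 also lost it with no composition factor. With both libraries numbered 3 left out all 7 ER calls were lost. Leaving out the plasma cell-rich negative replicates 1 and 2 sets 1 negative library, assumed to vary like the others, against the 3 positive ones. There Hsp90b1, Pdia6, Dnajb11 and P4hb were not called (adjusted p of 0.117, 0.0730, 0.0991 and 0.0518), with log2 fold changes of 0.27, 0.33, 0.43 and 0.32, against 0.29, 0.32, 0.42 and 0.26 with all libraries.

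Creld2 and Manf, secreted factors that ER stress induces, had the largest log2 fold changes among the uncalled ER members, 0.46 (SE 0.16) and 0.51 (SE 0.18), with edgeR adjusted p of 0.0684 and 0.0705, and they passed with the block (0.00581 and 0.0117) and with DESeq2 (0.0230 and 0.0186). Creld2 measured 58.2, 74.5 and 84.0 CPM in positive libraries and 44.2, 56.9 and 57.0 CPM in negative ones, without overlap. Manf measured 54.9, 72.8 and 90.7 CPM in positive libraries and 44.8, 55.6 and 53.0 CPM in negative ones, which overlapped. The Manf gene, with 1201 counts per library on average, overlaps Dcaf1 on the opposite strand (2559 counts) and Rbm15b on the same strand (458 counts). Canx, the membrane lectin calnexin, averaged 966 ± 93.9 CPM in positive libraries and 910 ± 32.9 CPM in negative ones, Dnajc3, an HSP40 that also inhibits PERK, 173 ± 24.1 and 154 ± 15.7 CPM, and Herpud1, of the degradation machinery, 160 ± 16.4 and 147 ± 19.4 CPM in the same order (SD, n = 3 each). Dnajb9, an HSP40 that restrains IRE1 and a known target of its partner XBP1, was the one ER member with a negative log2 fold change. It measured 32.7, 30.7 and 31.0 CPM in positive libraries and 36.0, 41.5 and 41.5 CPM in negative ones, without overlap (edgeR adjusted p = 0.0635, and 0.0358 with no composition factor).

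Of the 13 ER genes with a promoter window 6 share an element of the unfolded protein response. The members were chosen as genes of that response, among others, so the share of the element among them is not independent of the choice. The ER stress element, bound by ATF6 with NF-Y, was searched on both strands as CCAAT, any 9 bases and CCACG. It was found in the windows of 6 of the 43 members, all 6 of the ER class, against 0.137% of the 27025 genes, or 37 genes in all. Among the 6 are 2 called members, Hsp90b1 and Pdia6, and 4 uncalled ones, Hspa5, Creld2, Canx and Dnajc3. The stretches below run from 25 bases before to 25 after each element, 5′ to 3′ in the direction of the gene, in RefSeq coordinates of GRCm38.p6, with the element in capitals. They lie at chr2:34772000-34772068 (Hspa5, plus strand), chr10:86705508-86705576 (Hsp90b1, minus strand), chr12:17266466-17266534 (Pdia6, plus strand), chr15:88819495-88819563 (Creld2, plus strand) and chr14:118937802-118937870 (Dnajc3, plus strand).
Hspa5: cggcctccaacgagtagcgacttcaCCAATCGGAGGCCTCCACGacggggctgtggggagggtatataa
Hsp90b1: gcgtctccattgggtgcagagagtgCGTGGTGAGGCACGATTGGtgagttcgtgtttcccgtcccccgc
Pdia6: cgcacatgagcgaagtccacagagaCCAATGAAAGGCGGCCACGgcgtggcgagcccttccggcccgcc
Creld2: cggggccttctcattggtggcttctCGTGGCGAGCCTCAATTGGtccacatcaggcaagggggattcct
Dnajc3: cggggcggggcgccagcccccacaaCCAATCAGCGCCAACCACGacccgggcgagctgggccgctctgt
In Hsp90b1 and Creld2 the capitals read the element on the opposite strand, and the Hsp90b1 window holds another copy farther upstream. The called genes Sdf2l1, Dnajb11, Pdia3 and P4hb have windows without these exact letters, which says nothing of the factor. The unfolded protein response element (TGACG followed by TGG) was in 0 of the 43 windows, against 0.714% of all genes.

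Of the 7 sensors and transcription factors of the stress pathways 0 were called higher by edgeR (1 at an unadjusted p below 0.05, and 0 with DESeq2) and 1 was called lower, counts near the 9.65% and 10.9% of all tested genes. Ern1, which encodes IRE1, the sensor kinase and RNase that splices Xbp1 mRNA (ENSMUSG00000020715, GRCm39 chromosome 11, 106285476 to 106378678, minus strand, protein-coding), measured 42.5, 37.6 and 42.8 CPM in positive libraries and 55.2, 53.7 and 67.1 CPM in negative ones. Every positive library lay below every negative one. It was 1.43-fold lower (log2 fold change -0.52, SE 0.12, adjusted p = 0.0181 by edgeR). The call was lost without any single positive library and without negative replicate 3 (adjusted p of 0.0530 to 0.0711), and at 0.116 with both libraries numbered 3 left out.

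Xbp1, the factor that IRE1 activates by splicing, measured 137, 185 and 195 CPM in positive libraries and 177, 278 and 226 CPM in negative ones. The groups overlapped, and in each same-numbered pair the positive library was lower. Its log2 fold change was -0.40 (SE 0.18, edgeR adjusted p = 0.144) and passed with the block (-0.39, SE 0.08, edgeR adjusted p = 0.00814). Xbp1 is also a plasma cell gene, and Jchain, Igkc and Igha were high in negative replicates 1 and 2 only: Igkc stood at 0.0978 to 2.22 CPM in positive libraries, against 164, 119 and 0.205 CPM in negative replicates 1 to 3. Igha and Mzb1 had 0 counts in all 3 positive libraries. Negative replicate 3 held Jchain and Igkc below 1 CPM and Xbp1 at 226 CPM. The part of plasma cell transcripts in the Xbp1 values was not tested. Gene counts do not tell spliced from unspliced Xbp1 mRNA.

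Eif2ak3, which encodes PERK, measured 15.2, 9.33 and 13.6 CPM in positive libraries and 34.9, 9.47 and 24.1 CPM in negative ones, so that the libraries numbered 2 did not differ. Its log2 fold change of -0.84 (SE 0.41, edgeR adjusted p = 0.173) passed with the block (-0.71, SE 0.22, edgeR adjusted p = 0.0408) and without negative replicate 2 (-1.20, adjusted p = 0.0156). Atf6, the remaining ER sensor, averaged 43.9 ± 8.21 CPM in positive libraries and 42.9 ± 11.1 CPM in negative ones (SD, n = 3 each). Atf4, the main factor of the integrated stress response, which is controlled largely at translation, measured 88.1, 90.4 and 95.3 CPM in positive libraries and 84.0, 80.1 and 77.8 CPM in negative ones, without overlap and without a call (edgeR adjusted p = 0.164). Hsf1, heat shock factor 1, had the largest positive log2 fold change of the class, 0.28 (SE 0.11), which did not pass, with 74.4, 83.4 and 78.2 CPM in positive libraries and 71.6, 65.9 and 57.2 CPM in negative ones. Ddit3, the death-promoting factor CHOP, had a log2 fold change of -0.13 (SE 0.15, edgeR adjusted p = 0.580), and it overlaps the more abundant Mars1 on the opposite strand (305 against 4401 counts per library on average).

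Trib3 showed the largest difference of all members. It encodes a pseudokinase that ATF4 and CHOP induce and that in turn restrains them (ENSMUSG00000032715, GRCm39 chromosome 2, 152179342 to 152185952, minus strand, protein-coding). It measured 5.46, 7.83 and 4.40 CPM in positive libraries and 25.8, 31.8 and 57.7 CPM in negative ones. The highest positive library was well below the lowest negative one. Trib3 was 6.53-fold lower, a log2 fold change of -2.71 (SE 0.34, edgeR adjusted p = 0.00158). It was the one call among the 15 that held in all 14 alternatives, with adjusted p up to 0.0155. Negative replicate 3 was the highest library, and with both libraries numbered 3 left out the log2 fold change was -2.11. Over its 6 values of log2 CPM, an exact permutation test (two-sided) reached p = 0.1, which is as low as 3 libraries against 3 can go. Every member without overlap between the groups reached the same value, so it is not particular to Trib3.

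The other targets of the integrated stress response did not pass. Ppp1r15a, which encodes GADD34, the phosphatase subunit that ends the response, measured 39.4, 46.6 and 81.2 CPM in positive libraries and 48.1, 46.0 and 158 CPM in negative ones. It was highest in both libraries numbered 3, as were the immediate early genes, and its log2 fold change was -0.59 with all libraries and 0.25 without negative replicate 3. It was called lower only without negative replicates 1 and 2 (-1.49, edgeR adjusted p = 0.0206), which sets negative replicate 3 alone against the positive libraries and assumes that it varies like them. Asns, asparagine synthetase, measured 63.7, 61.7 and 57.5 CPM in positive libraries and 75.6, 73.7 and 62.2 CPM in negative ones (edgeR adjusted p = 0.185). Chac1, a glutathione-degrading enzyme, had 23, 1 and 0 counts in positive libraries and 2, 7 and 4 counts in negative ones and was not tested.

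The ATF4 element, searched as TGATG, any base and AA on both strands, was found for 3 of these 4 targets, Asns, Chac1 and Trib3, and for Herpud1 of the ER class. This is 4 of 43 members, against 4.51% of all genes with a window. The targets were chosen as genes of the integrated stress response, so these shares are not independent of the choice. The stretches of Asns (chr6:7693210-7693257, minus strand) and Chac1 (chr2:119351024-119351081, plus strand) are shown in the direction of the gene, in RefSeq coordinates of GRCm38.p6, with the element in capitals and, for Chac1, read on the opposite strand. In Trib3 the match lies after the gene start and is not shown.
Asns: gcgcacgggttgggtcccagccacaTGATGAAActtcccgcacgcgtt
Chac1: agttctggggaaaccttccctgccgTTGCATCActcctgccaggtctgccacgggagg
The 3 tested genes with the match, Asns, Trib3 and Herpud1, had log2 fold changes of -0.21, -2.71 and 0.13.

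Further genes of the same pathways were read from lists outside the 52, and their counts stand beside the 9.65% called higher and 10.9% called lower among all tested genes. Several of these counts lie near those shares. Of 58 further genes of ER folding, glycoprotein quality control and degradation 8 were called higher and 2 lower, with a median log2 fold change of 0.06. Calr, the soluble lectin calreticulin, averaged 908 ± 51.4 CPM in positive libraries and 698 ± 45.0 CPM in negative ones (SD, n = 3 each, log2 fold change 0.38, edgeR adjusted p = 0.00914). Fkbp2, an ER prolyl isomerase, rose 1.61-fold and Ssr1, a subunit of the translocon-associated complex, 1.28-fold, while Fkbp7, another ER prolyl isomerase, was 1.82-fold lower at 5.73 against 10.4 CPM. Of 41 HSP90 and cytosolic cochaperone genes 6 were higher and 3 lower. Dnajc9, an HSP40 that also chaperones histones, rose 1.54-fold, Hspa14 1.39-fold and Ptges3, the HSP90 cochaperone p23, 1.28-fold, while Serpinh1, the collagen chaperone HSP47, fell by 1.59 on the log2 scale.

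Of 15 prefoldin and CCT cofactor genes 3 were higher and 0 lower. Tbcd, a tubulin folding cofactor that receives tubulin from CCT, rose 1.47-fold, Pfdn6, a prefoldin subunit, 1.43-fold and the tubulin cofactor Tbcb 1.37-fold. Of 24 genes of mitochondrial chaperones, import and proteases 5 were higher and 0 lower, among them Dnajc15 with 1.53-fold, Timm8a1 with 1.42-fold, Grpel1, the exchange factor of mitochondrial HSP70, with 1.35-fold and Trap1, the mitochondrial HSP90, with 1.20-fold. Of 18 tested regulators of the 2 stress responses 1 was higher, Eif2s1, the eIF2 alpha subunit that PERK phosphorylates (1.32-fold), and 1 lower, Creb3 (1.40-fold lower).

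In the ATF4 programme 12 of 31 tested genes were higher and 2 lower, with a median log2 fold change of 0.21. The 4 with the lowest p were enzymes of serine, folate and proline synthesis. Psat1 averaged 280 ± 9.78 CPM in positive libraries and 152 ± 16.5 CPM in negative ones (SD, n = 3 each), a log2 fold change of 0.88 (SE 0.09, edgeR adjusted p = 0.000841). Mthfd2 rose 2.23-fold, Pycr1 2.20-fold and Shmt2 1.42-fold. Psat1, Mthfd2, Pycr1, Shmt2, Fkbp2, Dnajc9 and Tbcd kept their calls in all 14 alternatives. The other 14 genes named from these lists lost theirs with both libraries numbered 3 left out.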

How the data were processed

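Per the labels' protocols, each library was made from the total RNA of 2000 to 5000 sorted stem cells, isolated on micro columns, with a stranded SMARTer kit. GRCm39, DESeq2 and HISAT2 2.0.5 appear, without their roles, in the submitters' processing notes. Read counter, annotation release and use of strand: not given in the sources used here. The authors deposited raw counts per gene, the only values tested here, and FPKM, used to set levels side by side per length. A normalized signal, log2 fold changes and p-values deposited by the authors were left out.

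Tests ran in R 4.3.3 with edgeR 4.0.16 on all 6 libraries: filterByExpr (minimum count 10, minimum total 15), TMM factors, glmQLFit and glmQLFTest without covariates, and adjustment over 14451 genes. The steps were tested on simulated data. Standard errors are those the F test implies, and log2 CPM has a prior count of 2. Since no label names the animals behind a library, the p-values reflect spread among libraries that could be technical only. Chi-square per degree of freedom between libraries of a group was 11.0 to 22.9, above sampling noise. Same-numbered libraries of the 2 groups correlated by 0.214 to 0.284 in their deviations from the group means, every pair above the limit of 0.1. The numbers were taken to pair the samples where pairs or the block are named. No label states a pairing, so the main test left the number out. Its 13 higher and 2 lower members do not use the pairing, and with the block 25 and 5 were called. Alternatives were DESeq2 1.42.0, RLE factors, no composition factor, no filter, a minimum count of 50, the replicate block, each library left out and, chosen after seeing the data, negative replicates 1 and 2 or both libraries numbered 3 left out. Without a composition factor the median log2 fold change of all genes shifts to -0.10. Promoter windows came from RefSeq (GRCm38.p6, another build than the counts) and were matched by symbol. The members, lists and tests were chosen with earlier results of these data known. By rule, any member may be named, and up to 4 called genes per wider list with the lowest p.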

Additional observations from a re-analysis of the deposited data

How the results depend on the processing

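With 3 libraries per group and folds mostly under 1.41, the count of called members depends on the setting, while the 15 calls kept their direction in all 14 alternatives. Over all tested genes, 1395 higher and 1572 lower calls became 2105 and 2429 with the replicate block and 380 and 413 with both libraries numbered 3 left out, and ranged over 656 to 1437 and 802 to 1612 with single libraries left out. Of the members, 13 higher and 2 lower became 25 and 5 with the block, 6 and 4 with no composition factor, and 0 and 1 with both libraries numbered 3 left out, with ranges of 4 to 19 and 1 to 3 over single libraries.

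By class, the higher calls of CCT (5) were 8 with the block, 2 with no composition factor and 8 without negative replicates 1 and 2, those of the ER class (7) were 3 and 3 in the last 2 settings, and both were 0 with both libraries numbered 3 left out (1 to 8 for each over single libraries). Cytosolic higher calls (1) were 2 with DESeq2, 2 with no filter, 5 with the block, 2 without negative replicates 1 and 2 and 0 with both libraries numbered 3 left out (1 to 2 over single libraries), and mitochondrial ones (0) were 1 with DESeq2, 2 with the block and 2 without negative replicates 1 and 2 (0 to 2 over single libraries). Lower calls were 1 in the cytosolic class with the block, no composition factor or the strict filter, 1 in the ER class with no composition factor, 2 for the stress targets without negative replicates 1 and 2, and, for the sensors (1), 3 with the block and 0 with both libraries numbered 3 left out (0 to 2 over single libraries).

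Only uncalled members changed sign. Dnaja1 had -0.0746 with no composition factor, -0.0186 with the strict filter, -0.000732 with the block and -0.16 to 0.15 over single libraries. Atf6 had -0.0384 with no composition factor, -0.22 without negative replicates 1 and 2 and -0.15 to 0.20 over single libraries. Without negative replicates 1 and 2, Hspa4l had -0.0267, Dnajb1 -0.0604 and Ddit3 0.0166. Over single libraries Dnajb1 ranged over -0.0306 to 0.19, Hspa1b over -1.18 to 0.0816, Hspa8 over -0.00930 to 0.35 and Ppp1r15a over -0.96 to 0.25. The cause of these changes was not tested. The replicate block ended no call.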
